A study of Mus musculus with 8 samples.

Results

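The 8 chemokine genes Ccl1, Ccl3, Ccl4, Ccl5, Ccl9, Ccl22, Cxcl10 and Xcl1 were followed in donor T cells of the spleen after allogeneic hematopoietic cell transplantation (HCT). They were chosen by their symbols, as a list of T cell chemokine ligands, with earlier results of these data known. They are 8 of the 25078 gene rows of the deposited tables. Messenger RNA had been sequenced on day 6 after HCT from C57BL/6 donor T cells that were either wild type (WT) or Stat3 fl/fl with a Cre recombinase under Cd4 regulatory sequences (STAT3ko in the labels, STAT3KO below). All recipients were wild-type BALB/c mice that had been irradiated and had also received T cell-depleted bone marrow from WT C57BL/6 donors. Donor cells were sorted as H-2Kb+ TCRβ+ cells that were CD4+ or CD8+, which gave 4 groups of 2 libraries, WT and STAT3KO of either cell type. Cd4 is active before T cells divide into CD4 and CD8 lineages, so this Cre deletes Stat3 in both. The ages of the animals were not given in the sources used here. Per the study's methods, each library pools 3 recipients, so that 2 libraries are 2 pools. The titles number the libraries of a group 1 and 2 and also carry identifiers that form a lower run for every library 1 and a higher run for every library 2, without saying what either marks, and p-values measure the spread between these libraries. The libraries held between 20171396 and 23282757 counts, and a count of 0 allowed up to 3 counts, or between 0.126 and 0.150 CPM (counts scaled to library size, with TMM factors). Cd3e, a subunit of the T cell receptor complex, lay between 576 and 746 CPM in all 8 libraries. The targeted gene, Stat3, had between 428 and 436 CPM in the 4 WT libraries and between 120 and 143 CPM in the 4 STAT3KO libraries, lower in every one. Limits set by a count of 0 cover counting error only.

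Chemokines are small secreted proteins that bind G protein-coupled receptors and draw cells along a gradient. Ccl3, Ccl4 and Ccl5 are inflammatory CC chemokines released by activated and cytotoxic T cells, while Xcl1 acts on Xcr1 of cross-presenting dendritic cells. Cxcl10 is an interferon-induced ligand of Cxcr3, Ccl1 binds Ccr8, Ccl22 binds Ccr4, and Ccl9 is a ligand of Ccr1 that myeloid cells are known to make. After HCT, chemokines are known to bring T cells and myeloid cells into the organs that graft-versus-host disease attacks.

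On mm10, the coordinates of the deposited tables placed 4 of the genes close together on chromosome 11. Ccl5 lay at chr11:83525779-83530518, Ccl9 at chr11:83572917-83578636 and Ccl3 at chr11:83647843-83649378, all on the minus strand. Ccl4 lay on the plus strand at chr11:83662584-83664683, 13205 bases from Ccl3, and the 4 genes spanned 138905 bases. Ccl1 lay on the same chromosome at chr11:82176666-82179812 on the minus strand. Xcl1 was at chr1:164931644-164935522 and Cxcl10 at chr5:92346639-92348889, both on the minus strand, and Ccl22 at chr8:94745684-94751388 on the plus strand. All 8 are annotated as protein coding. On the opposite strand, Art3 shares 133 exon bases with Cxcl10 and Gm20743 shares 98 with Xcl1, and whether the counting used strand is not given in the sources used here. Art3 had between 8 and 48 counts per library, against between 130 and 1492 for Cxcl10, and Gm20743 had at most 1.

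The promoter of Cxcl10 is shown because it holds several of the motifs searched for, and those of Ccl3 and Xcl1 because these genes varied together over the libraries (below). The sequences are the 250 bases before the RefSeq start on GRCm38.p6, 5′ to 3′ on the minus strand, at chr5:92348890-92349139 for Cxcl10, chr11:83649379-83649628 for Ccl3 and chr1:164935523-164935772 for Xcl1. Capitals mark the motifs described after them.
Cxcl10: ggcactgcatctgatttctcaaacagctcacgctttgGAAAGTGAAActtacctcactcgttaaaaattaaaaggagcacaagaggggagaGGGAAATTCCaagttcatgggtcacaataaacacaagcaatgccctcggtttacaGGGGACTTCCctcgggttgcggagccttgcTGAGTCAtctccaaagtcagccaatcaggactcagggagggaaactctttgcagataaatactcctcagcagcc
Ccl3: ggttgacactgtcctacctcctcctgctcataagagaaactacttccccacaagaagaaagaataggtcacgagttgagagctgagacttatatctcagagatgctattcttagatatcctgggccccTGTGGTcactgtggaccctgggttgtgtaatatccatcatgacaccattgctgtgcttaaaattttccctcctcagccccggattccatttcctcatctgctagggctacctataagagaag
Xcl1: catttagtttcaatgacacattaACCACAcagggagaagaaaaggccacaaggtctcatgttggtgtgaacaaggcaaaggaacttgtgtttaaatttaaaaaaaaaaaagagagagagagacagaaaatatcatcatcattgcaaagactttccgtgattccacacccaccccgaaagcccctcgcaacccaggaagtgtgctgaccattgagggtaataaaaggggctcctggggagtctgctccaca

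The RefSeq table held the promoters of 6 of the 8 genes, all except Ccl4 and Ccl5. Motifs were searched on both strands, and the letters of the NF-kB motif were loosened after these promoters had been read, so the matches are descriptions only. The core of an interferon response element (GAAANNGAAA) began 213 bases upstream of the Cxcl10 start and was in none of the other 5, against 2.98% of all 32851 promoter windows of this length. The NF-kB letters (GGGNNNTTCC) were found 159 and 104 bases upstream of Cxcl10, 35 upstream of Ccl9, and in an overlapping pair 196 and 195 bases upstream of Ccl1, against 4.65% of all windows. The AP-1 letters (TGANTCA) stood 74 bases upstream of Cxcl10 and 53 upstream of Ccl9 (6.75% of all windows). The Runx letters (TGTGGT) stood 122 bases upstream of Ccl3 and, on the other strand, 227 upstream of Xcl1 (14% of all windows). The palindrome that STAT proteins are known to bind (TTCNNNGAA) was in none of the 6 windows, against 7.02% of all windows, which says only that these letters are not there.

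Levels of different genes were compared as RPKM (reads per kilobase of exon, scaled to the size of the library), as deposited. The summed RPKM of the 8 genes was 246 and 127 in the WT CD4 libraries and 576 and 452 in the STAT3KO CD4 libraries (libraries numbered 1 and 2). In CD8 T cells it was 798 and 625 in WT and 1114 and 1022 in STAT3KO. The groups did not overlap, and the sum was lowest in WT CD4 and highest in STAT3KO CD8 libraries. Ccl3, Ccl4 and Ccl5 together made up between 82.7% and 94.5% of this sum in every library. For Ccl5 alone the share was 19.7% and 32.3% of the sum in WT CD4 libraries and 48.9% and 59.6% of it in STAT3KO CD4 libraries. Among CD8 libraries its share was 45.7% and 61.4% with WT donors and 63.1% and 69.2% with STAT3KO donors. Ccl5 was thus the most abundant of the 8 by RPKM in 7 of 8 libraries, and Ccl3 led in WT CD4 library 1. Among the genes tested, the RPKM of Ccl5 stood at the 99.7 percentile in both STAT3KO CD8 libraries, and at the 87.2 and 83.7 percentiles in the WT CD4 libraries. Ccl3 exceeded Ccl4 by RPKM in every library, with a ratio between 1.20 and 1.79. In STAT3KO CD4 library 2, Cxcl10 came after Ccl5 and Ccl3 with 13.4% of the sum, above Ccl4 with 8.72%.

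**Figure D1:**
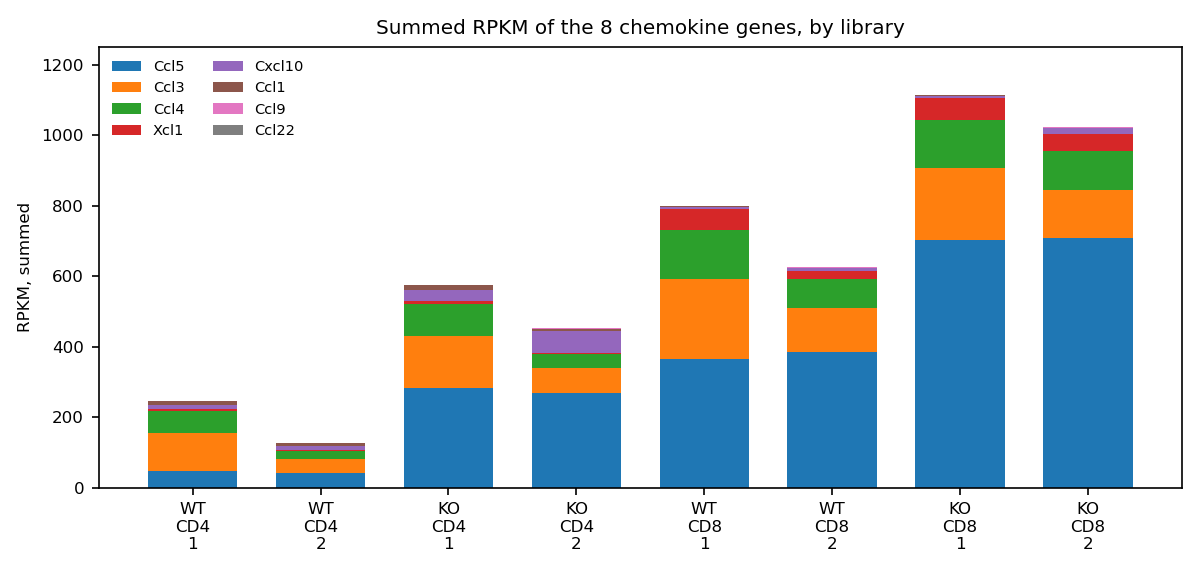
Stacked bars give the summed RPKM (vertical axis) of the 8 chemokine genes in each of the 8 libraries (horizontal axis, group and library number), with 1 colour per gene. Ccl5 took 19.7% of the bar in WT CD4 library 1 and 69.2% in STAT3KO CD8 library 2.

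Of the 8 genes, 7 passed the filter on low counts and were tested among 12428 genes with edgeR's quasi-likelihood test and Benjamini-Hochberg adjustment over all of them (two-sided, threshold 0.05). Ccl22 did not pass and was given by its counts. In CD4 T cells, 1 of 7 was called higher in STAT3KO than in WT and 0 lower, against 11.6% of all genes called (6.54% higher and 5.08% lower). The CD8 comparison likewise called 1 of 7 higher and 0 lower, against 2.07% of all genes (1.34% higher and 0.732% lower). The called gene was Ccl5 in both. The median log2 fold change of the 7 genes was 1.09 for CD4 and 0.19 for CD8 T cells, where that of all genes was 0.02 and -0.01. A difference in the STAT3KO effect between the cell types was called for 0 of 7 genes, as for 0% of all genes, although 982 genes had an unadjusted p under 0.05 in edgeR (1 of the 7 among them) and DESeq2 called 188 (1 of the 7). Between cell types, CD8 against CD4, the test called 2 higher and 1 lower in WT (23.8% of all genes called, 12.2% higher and 11.6% lower) and 2 higher and 2 lower in STAT3KO cells (12.5% of all genes, 5.84% higher and 6.67% lower). Groups without overlap were common among all genes. For STAT3KO against WT in CD4 T cells, 2 of 7 lay wholly higher (28.5% of all genes) and 0 wholly lower (25%), and for CD8 T cells 1 lay higher (24.9%) and 1 lower (24.8%). For CD8 against CD4, 4 lay wholly higher (29.2%) and 2 lower (30%) in WT, and 3 higher (29.6%) and 2 lower (28.7%) in STAT3KO cells. In bulk samples, fewer cells that make a chemokine and less RNA per cell cannot be told apart.

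Libraries with the same number deviated from their group means together, and a fit with the library number as a block called more of the genes. With the block, 5 of 7 were called higher and 0 lower in STAT3KO than in WT CD4 T cells (30.1% of all genes called, 16.5% higher and 13.7% lower), and 1 of 7 higher for CD8 T cells (18.2% of all genes, 10.3% higher). The block also called 1 of 7, with a negative difference, for the difference between cell types (3.24% of all genes, 1.16% positive and 2.08% negative). For CD8 against CD4 it called 5 of 7 higher and 2 lower in WT (42.1% of all genes, 20.6% higher and 21.5% lower) and 4 higher and 2 lower in STAT3KO cells (29.7% of all genes, 14.4% higher and 15.3% lower).

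**Figure D2:**
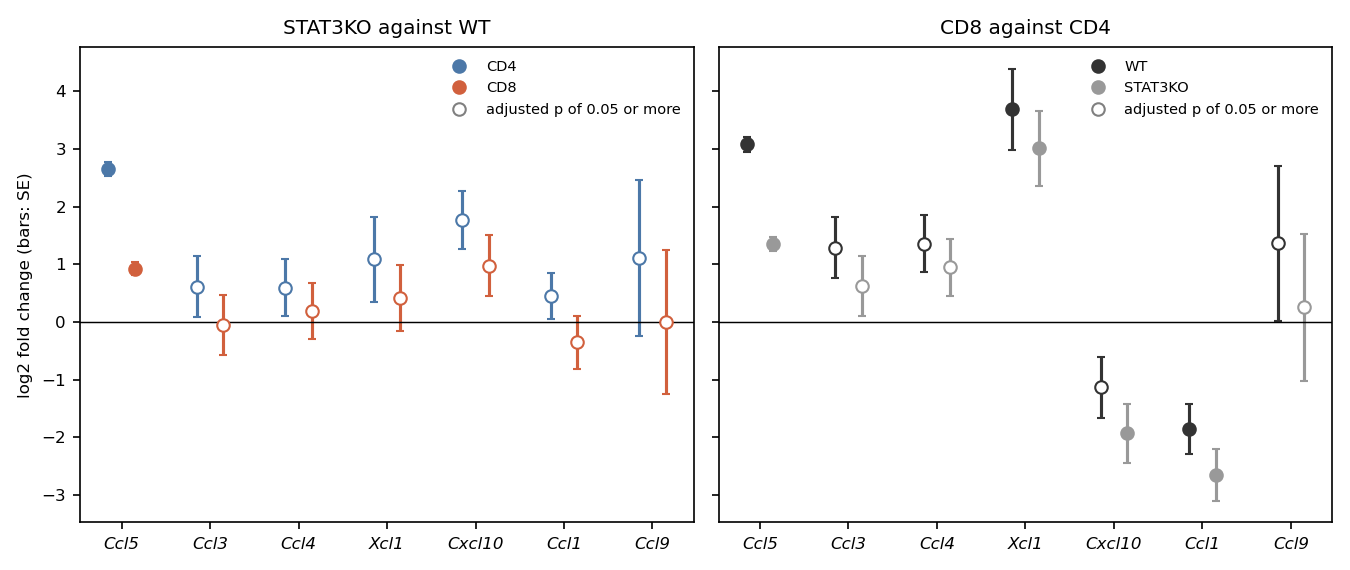
Points give the log2 fold change (vertical axis) of the 7 tested chemokine genes (horizontal axis) for STAT3KO against WT in CD4 and CD8 T cells (left) and for CD8 against CD4 T cells in WT and STAT3KO (right), with bars of 1 SE. Filled points had an edgeR adjusted p under 0.05: Ccl5 in all 4 comparisons, Xcl1 and Ccl1 in both on the right, and Cxcl10 in STAT3KO cells on the right.

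Ccl5, also known as RANTES, is a ligand of Ccr3 and Ccr1, among others, that T cells make late after activation and that memory and cytotoxic T cells keep ready. Its level was 25.9 and 21.5 CPM in WT CD4, 151 and 147 CPM in STAT3KO CD4, 194 and 207 CPM in WT CD8, and 376 and 385 CPM in STAT3KO CD8 libraries. No 2 groups overlapped, and STAT3KO CD4 libraries stood between WT CD4 and WT CD8 libraries. In CD4 T cells Ccl5 was 6.29-fold higher in STAT3KO, with an adjusted p of 0.000325 in edgeR, and it had the lowest p of all 12428 genes. In CD8 T cells it was 1.90-fold higher in STAT3KO (0.92 on the log2 scale with SE 0.11 and adjusted p 0.0147 by edgeR). That call was lost without any one of the 4 CD8 libraries, with edgeR adjusted p 0.0784 and 0.0988 without WT CD8 library 1 or 2, and 0.0866 and 0.0901 without STAT3KO CD8 library 1 or 2. The direction held in each of these fits, with log2 fold changes between 0.87 and 0.97.

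The STAT3KO effect on Ccl5 was smaller in CD8 than in CD4 T cells by 1.73 on the log2 scale (difference CD8 minus CD4 -1.73, SE 0.16), which had the lowest p of all genes but an edgeR adjusted p of 0.0916. With the library number as a block this difference was called (-1.73, edgeR adjusted p 0.000859), and with DESeq2 it was called too. Within WT cells, Ccl5 was 8.46-fold higher in CD8 than in CD4 T cells (3.08 on the log2 scale with SE 0.12 and adjusted p 3.64e-05 by edgeR). Within STAT3KO cells it was 2.55-fold higher in CD8 (1.35 on the log2 scale with SE 0.12 and adjusted p 0.000824 by edgeR). The libraries of a group lay close together for Ccl5: the ratio of library 2 to library 1 lay between 0.830 and 1.07.

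**Figure D3:**
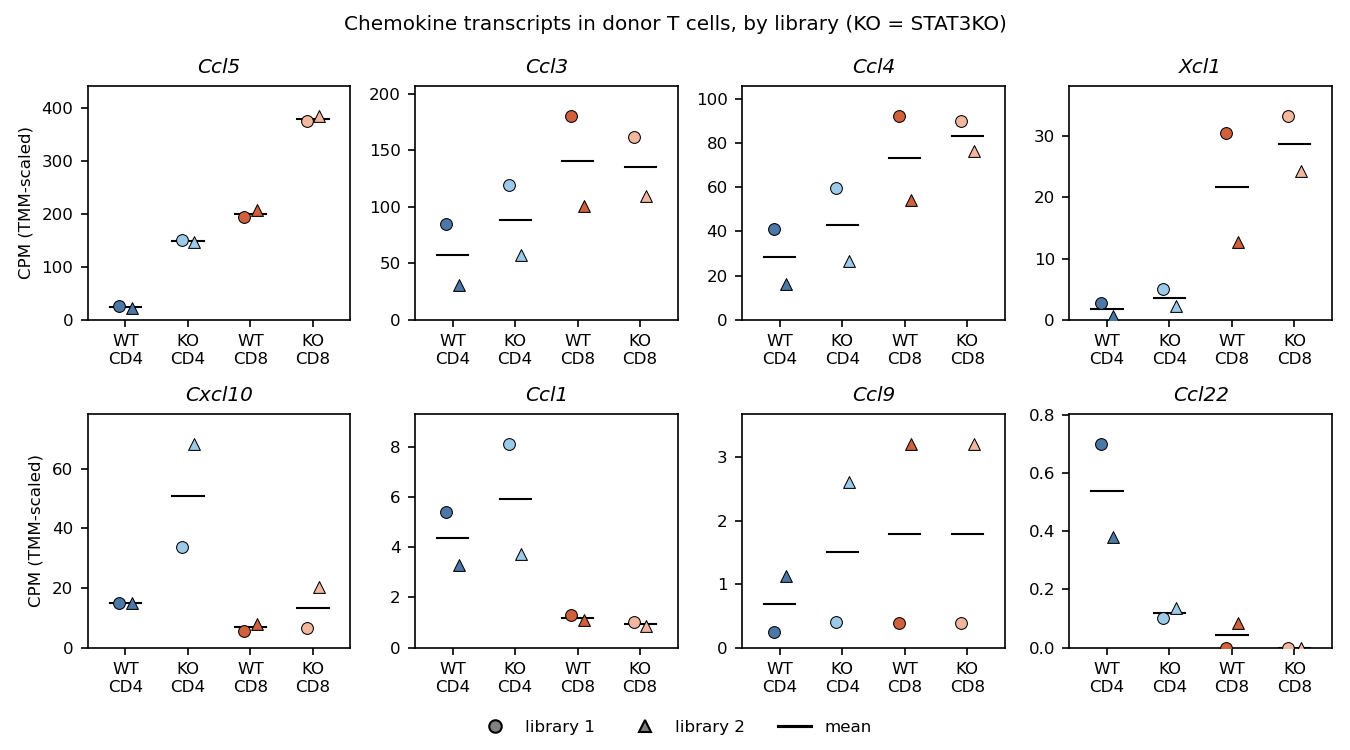
Each panel shows 1 chemokine gene as TMM-scaled CPM (vertical axis, from 0) in the 4 groups, with a circle for library 1, a triangle for library 2 and a line for their mean. Ccl5 separated all 4 groups, Xcl1 and Ccl1 separated the cell types, Ccl3 and Ccl4 were lower and Ccl9 higher in every library 2, and Ccl22 lay near 0 outside WT CD4.

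Ccl3 and Ccl4, the macrophage inflammatory proteins MIP-1α and MIP-1β, are neighbouring genes whose products draw T cells and monocytes. Ccl3 had 84.7 and 30.6 CPM in WT CD4, 119 and 57.0 CPM in STAT3KO CD4, 180 and 101 CPM in WT CD8, and 162 and 109.5 CPM in STAT3KO CD8 libraries. Ccl4 had 40.9 and 16.2 CPM in WT CD4, 59.5 and 26.6 CPM in STAT3KO CD4, 92.1 and 54.2 CPM in WT CD8, and 90.0 and 76.3 CPM in STAT3KO CD8 libraries. For both genes library 1 exceeded library 2 in every group, and STAT3KO overlapped WT in both cell types. The STAT3KO effect in CD4 T cells was 0.61 (SE 0.53) for Ccl3 and 0.59 (SE 0.50) for Ccl4 on the log2 scale, with edgeR adjusted p of 0.518 and 0.506. Within a library number, Ccl3 of STAT3KO CD4 was 1.41 times WT in libraries 1 and 1.86 times in libraries 2. With the number as a block, Ccl3 passed the test in CD4 T cells (0.66 on the log2 scale, adjusted p 0.0128 by edgeR) and Ccl4 did not (edgeR adjusted p 0.0518). The effect in CD8 T cells was -0.05 (SE 0.52) for Ccl3 and 0.19 (SE 0.48) for Ccl4, with edgeR adjusted p of 0.975 and 0.889, and intervals of this width hold changes in either direction.

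CD8 libraries held more Ccl3 and Ccl4 than CD4 libraries within WT, without overlap. The log2 fold change of CD8 against CD4 in WT was 1.29 (SE 0.53) for Ccl3 and 1.36 (SE 0.50) for Ccl4, with edgeR adjusted p of 0.125 and 0.0907. Both passed with the block, with edgeR adjusted p of 9.17e-05 for Ccl3 and 0.000356 for Ccl4. Without WT CD4 library 1 the log2 fold changes of Ccl3 and Ccl4 were 2.18 and 2.16, and without WT CD4 library 2 they were 0.72 and 0.82. In STAT3KO cells the same contrast was 0.62 (SE 0.53) for Ccl3 and 0.95 (SE 0.49) for Ccl4, with edgeR adjusted p of 0.503 and 0.264, and 0.00882 and 0.00310 with the block.

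Xcl1, or lymphotactin, is made by activated CD8 T cells and natural killer cells. The libraries held 2.79 and 0.567 CPM in WT CD4, 4.95 and 2.19 CPM in STAT3KO CD4, 30.5 and 12.8 CPM in WT CD8, and 33.2 and 24.4 CPM in STAT3KO CD8 libraries. All 4 CD8 libraries exceeded all 4 CD4 libraries, and STAT3KO overlapped WT in both cell types. Xcl1 was 12.9-fold higher in CD8 than in CD4 T cells of WT (3.69 on the log2 scale with SE 0.70 and adjusted p 0.00784 by edgeR) and 8.08-fold higher in STAT3KO (3.02 on the log2 scale with SE 0.65 and adjusted p 0.0237 by edgeR). The WT call held without any one library. The STAT3KO call was lost without any one of the 4 STAT3KO libraries, with edgeR adjusted p of 0.0779 and 0.139 without CD4 library 1 or 2, and 0.112 and 0.0681 without CD8 library 1 or 2. The STAT3KO effect on Xcl1 was 1.09 with SE 0.74 for CD4 (edgeR adjusted p 0.396) and 0.41 with SE 0.57 for CD8 T cells (edgeR adjusted p 0.772). With the block, Xcl1 passed in CD4 T cells (1.12 on the log2 scale, adjusted p 0.0413 by edgeR).

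Cxcl10, or IP-10, draws Cxcr3-bearing T cells and is induced by interferons. Its level was 14.9 CPM in both WT CD4 libraries, 33.7 and 68.2 CPM in STAT3KO CD4, 5.62 and 7.92 CPM in WT CD8, and 6.46 and 20.2 CPM in STAT3KO CD8 libraries. STAT3KO CD4 libraries lay above all others, while the CD8 groups of both genotypes overlapped. The fold in CD4 T cells was 3.42 (log2 fold change 1.77, SE 0.51), with an edgeR adjusted p of 0.0632, so Cxcl10 missed the threshold. It passed with the block (1.67, edgeR adjusted p 0.00130) and with DESeq2 (adjusted p 0.00130), but not in every alternative. Without one library, its log2 fold change ran from 1.17 (without STAT3KO CD4 library 2) to 2.17 (without STAT3KO CD4 library 1). Within a library number, STAT3KO CD4 was 2.26 times WT in libraries 1 and 4.58 times in libraries 2. For Cxcl10 the effect of STAT3KO in CD8 T cells was 0.98 (SE 0.53, edgeR adjusted p 0.367).

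Unlike Ccl5 and Xcl1, Cxcl10 was lower in CD8 than in CD4 T cells in both genotypes, without overlap. In STAT3KO cells it was 3.82-fold lower (-1.93 on the log2 scale with SE 0.51 and adjusted p 0.0468 by edgeR). This call was lost without any one of 7 libraries, with edgeR adjusted p between 0.0545 (without WT CD8 library 2) and 0.217 (without STAT3KO CD4 library 2), and STAT3KO CD8 library 2 was the exception. Without the other 5 libraries the adjusted p was 0.0579 and 0.0559 (WT CD4 library 1 or 2), 0.0655 (STAT3KO CD4 library 1), 0.0567 (WT CD8 library 1) and 0.137 (STAT3KO CD8 library 1) in edgeR. In WT cells the log2 fold change was -1.14 (SE 0.53, edgeR adjusted p 0.165), and Cxcl10 passed with the block (-1.19, edgeR adjusted p 0.0102) and with DESeq2 (adjusted p 0.0485).

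Ccl1 is a ligand of Ccr8, a receptor of type 2 helper and regulatory T cells. The libraries held 5.39 and 3.31 CPM in WT CD4, 8.10 and 3.75 CPM in STAT3KO CD4, 1.30 and 1.09 CPM in WT CD8, and 1.01 and 0.857 CPM in STAT3KO CD8 libraries. All CD4 libraries exceeded all CD8 libraries, the reverse of Xcl1 and Ccl5. Ccl1 was 3.62-fold lower in CD8 than in CD4 T cells of WT (-1.86 on the log2 scale with SE 0.43 and adjusted p 0.0186 by edgeR) and 6.30-fold lower in STAT3KO (-2.66 on the log2 scale with SE 0.45 and adjusted p 0.00971 by edgeR). The WT call was lost without WT CD4 library 1, WT CD8 library 1 or WT CD8 library 2 (edgeR adjusted p 0.0832, 0.0759 and 0.0873). The STAT3KO call was lost without STAT3KO CD4 library 1, STAT3KO CD8 library 1 or STAT3KO CD8 library 2 (edgeR adjusted p 0.0545, 0.0650 and 0.0714). The STAT3KO effect on Ccl1 was 0.45 with SE 0.40 for CD4 (edgeR adjusted p 0.538) and -0.35 with SE 0.46 for CD8 T cells (edgeR adjusted p 0.751). The WT and STAT3KO values of CD8 T cells did not overlap, as for 24.8% of all genes in that direction.

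Ccl22, a ligand of Ccr4 that dendritic cells and some activated T cells make, had 14 and 8 counts in the WT CD4 libraries, 2 and 3 counts in STAT3KO CD4, 0 and 2 counts in WT CD8, and 0 and 0 counts in STAT3KO CD8. Only the 2 WT CD4 libraries held more than 3 counts. Summed over libraries and scaled to their sizes, the STAT3KO to WT ratio in CD4 T cells was 0.224 (5 against 22 counts, 95% exact interval 0.0662 to 0.605). The interval covers counting error only, and without the filter on low counts the edgeR adjusted p of this contrast was 0.221. Across cell types, the WT CD8 to WT CD4 ratio was 0.0799 (2 against 22 counts, 95% exact interval 0.00911 to 0.325), with an edgeR adjusted p of 0.0411 without the filter.

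Ccl9, or MIP-1γ, had 0.249 and 1.13 CPM in WT CD4, 0.400 and 2.60 CPM in STAT3KO CD4, 0.389 and 3.20 CPM in WT CD8, and 0.386 and 3.20 CPM in STAT3KO CD8 libraries. In every group library 2 was the higher, and the 4 groups overlapped one another. No comparison between groups passed the test for Ccl9 (edgeR adjusted p from 0.519 to 1.00). With the block it passed for STAT3KO against WT in CD4 T cells (1.09 on the log2 scale, adjusted p 0.0486 by edgeR) and for CD8 against CD4 in WT (1.30, edgeR adjusted p 0.0144).

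The libraries numbered 2 were therefore compared with those numbered 1 in the fit with the block, a contrast chosen after these values had been seen, in which 23.1% of all genes were called. Of the 7 tested chemokine genes, 2 were higher in libraries 2 and 4 lower (10.7% and 12.4% of all genes). Ccl9 was 6.96-fold higher (2.80 on the log2 scale with SE 0.26 and adjusted p 0.000165 by edgeR) and Cxcl10 was 1.74-fold higher (edgeR adjusted p 0.0194). Ccl3, Ccl4, Xcl1 and Ccl1 were lower, with log2 fold changes of -0.97, -0.84, -1.01 and -0.70 and edgeR adjusted p of 0.000567, 0.00337, 0.00476 and 0.0281. Ccl5 gave -0.03 (edgeR adjusted p 0.776), with an SE of 0.07.

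Macrophage markers moved with the library number in the same direction as Ccl9 and, outside WT CD4 (ratio of library 2 to library 1 0.998), Cxcl10. All 10 listed markers had counts in every library, and their summed level in libraries 1 and 2 was 25.9 and 98.3 CPM in WT CD4, 30.1 and 132 CPM in STAT3KO CD4, 45.1 and 187 CPM in WT CD8, and 62.7 and 165 CPM in STAT3KO CD8. The sum was higher in library 2 of every group, by 2.63 to 4.39 times, in cells sorted as TCRβ+, a gate that leaves macrophages out. Adgre1, C1qa and Csf1r, which mark tissue macrophages, had log2 fold changes of 2.88, 3.12 and 3.15 between the numbers, Cd68 had 0.29 (edgeR adjusted p 0.0917), and Cd3e had 0.05 (edgeR adjusted p 0.627). Ccl6, a myeloid chemokine closely related to Ccl9, was 7.17-fold higher in libraries 2 (edgeR adjusted p 2.64e-06). The part of these cells in the levels of Ccl9 and Cxcl10 was not tested. Sums of the other marker lists (CPM without TMM) were compared in the same way. The 10 dendritic cell markers summed to between 15.1 and 19.6 CPM in CD4 libraries and between 162 and 275 CPM in CD8 libraries, most of it Itgax (13.1 to 272 CPM), while Clec9a, Siglech and Cd209a were at 0 in all 8 libraries. The 8 natural killer cell markers summed to between 20.6 and 51.7 CPM, led by Klrb1c (13.9 to 26.2 CPM), with Klra8 and Klra4 at 0 throughout. B cell markers, led by Cd22, summed to between 106 and 171 CPM in CD4 and between 37.7 and 55.0 CPM in CD8 libraries. The dendritic and B cell sums thus moved with the cell type, and their part in the chemokine differences between CD8 and CD4 T cells was not tested. The summed neutrophil, erythroid and mast cell or basophil lists ranged from 3.49 to 22.8, 0.992 to 8.72 and 2.37 to 11.3 CPM. Like the macrophage sum, the erythroid sum was higher in library 2 of every group. In libraries 1 and 2 it was 0.992 and 3.46 CPM in WT CD4 and 1.18 and 4.28 CPM in STAT3KO CD4. In CD8 T cells it was 1.46 and 7.35 CPM in WT and 1.23 and 8.72 CPM in STAT3KO. The natural killer and mast cell or basophil sums were also higher in every library 2, and the neutrophil sum in all groups but WT CD4.

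**Figure D4:**
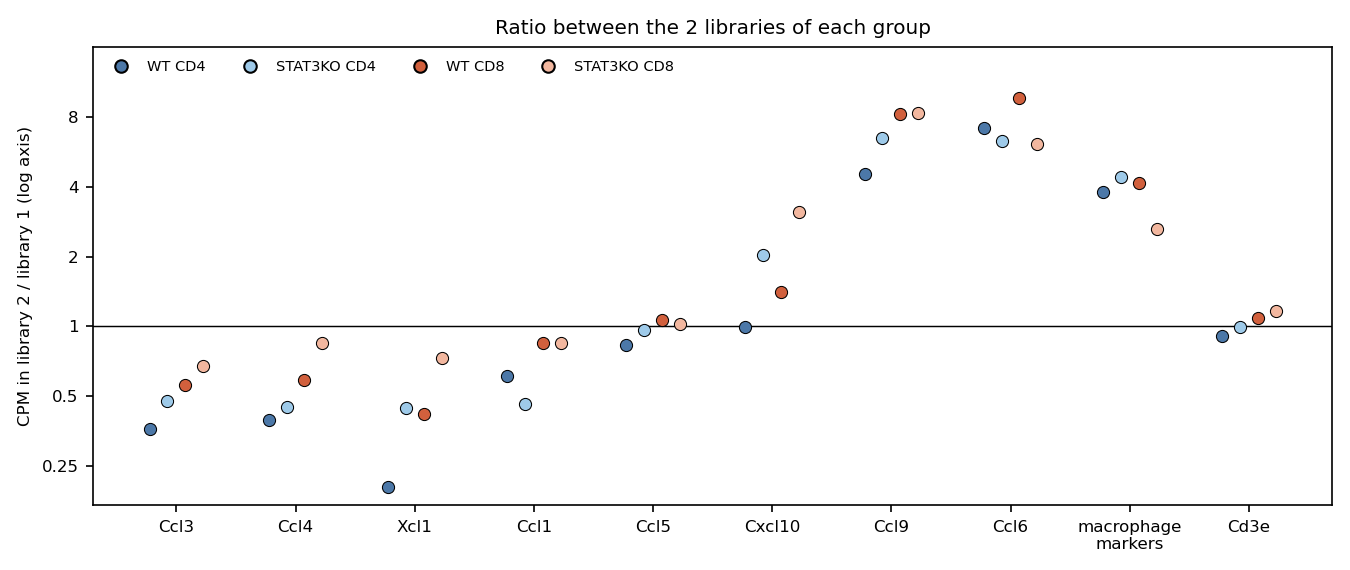
Points give, for each of the 4 groups, the ratio of CPM in library 2 to library 1 (vertical log axis) for the 7 tested chemokine genes, Ccl6, the sum of 10 macrophage markers and the T cell gene Cd3e (horizontal axis). Ccl9 lay between 4.55 and 8.30 and the macrophage sum between 2.63 and 4.39, while Ccl5 stayed between 0.830 and 1.07.

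Over the 8 libraries, which share the 4 groups and the 2 numbers, the levels (log2 CPM) of some of the genes followed each other closely. Pearson's r was 0.98 between Ccl3 and Ccl4, 0.96 between Ccl4 and Xcl1, and 0.92 between Ccl3 and Xcl1. Ccl5 followed Xcl1 with r = 0.85, but Cxcl10 followed neither Ccl5 (r = -0.14) nor Ccl9 (r = 0.32) as closely. Among tested genes that averaged at least 3 in log2 CPM, the nearest to Ccl9 was Ccl6 (r = 0.98), then Sdc3 (0.96) and Vcam1 (0.95). The nearest to Ccl5 were 2700099C18Rik, Pls1 and Cenpf (r from 0.99 to 1.00), and the nearest to Cxcl10 were Vav3, Gpm6b and Serpina3g (0.96 to 0.97). For Ccl3 the nearest were Rps6ka1, Zc3h4 and Adprh, for Ccl4 Rac1, Depdc5 and Ralgapa2, for Xcl1 Pi4k2b and Ywhah, and for Ccl1 Foxj2, Phf1 and Tmub1, all with r of at least 0.98. These were the best of 8757 genes or more and are descriptions of 8 libraries.

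Of 6 receptors of these chemokines, 5 passed the filter. For STAT3KO against WT, edgeR called 0 of 5 in CD4 T cells (11.6% of all genes) and 0 of 5 in CD8 T cells (2.07%). In edgeR the unadjusted p was under 0.05 for 1 and 0 of them, and DESeq2 called 0 and 0. Cxcr3, the receptor of Cxcl10, lay between 207 and 295 CPM in all libraries and passed no test between groups without the block. With it, Cxcr3 was lower in CD8 than in CD4 T cells of WT (-0.32 on the log2 scale, adjusted p 0.00954 by edgeR). Ccr4, the receptor of Ccl22, had 8.93 and 5.15 CPM in WT CD4, 10.5 and 13.8 CPM in STAT3KO CD4, and between 0.295 and 0.627 CPM in CD8 libraries. Its log2 fold change of CD8 against CD4 was -4.17 in WT and -4.55 in STAT3KO cells (edgeR adjusted p 0.000466 and 0.000948). Ccr8, the receptor of Ccl1, had 11.9 and 6.28 CPM in WT CD4, 16.6 and 13.3 CPM in STAT3KO CD4, 4.67 and 2.40 CPM in WT CD8, and 2.94 and 3.29 CPM in STAT3KO CD8 libraries. Like its ligand it was lower in CD8 T cells, by -1.36 in WT and -2.25 in STAT3KO on the log2 scale (edgeR adjusted p 0.0379 and 0.0106). With the block, Ccr4 and Ccr8 also passed for STAT3KO against WT in CD4 T cells, with log2 fold changes of 0.82 and 0.75. These were 2 of 5 called higher, against 16.5% of all genes. Ccr1 passed with the block as lower in CD8 than in CD4 T cells of WT (-0.93, edgeR adjusted p 0.0471). In that contrast the block called 4 of 5 lower, against 21.5% of all genes. Ccr3 lay between 1.60 and 7.89 CPM and Ccr1 between 0.677 and 1.65 CPM, and Xcr1, the receptor of Xcl1, had at most 2 counts in a library.

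**Figure D5:**
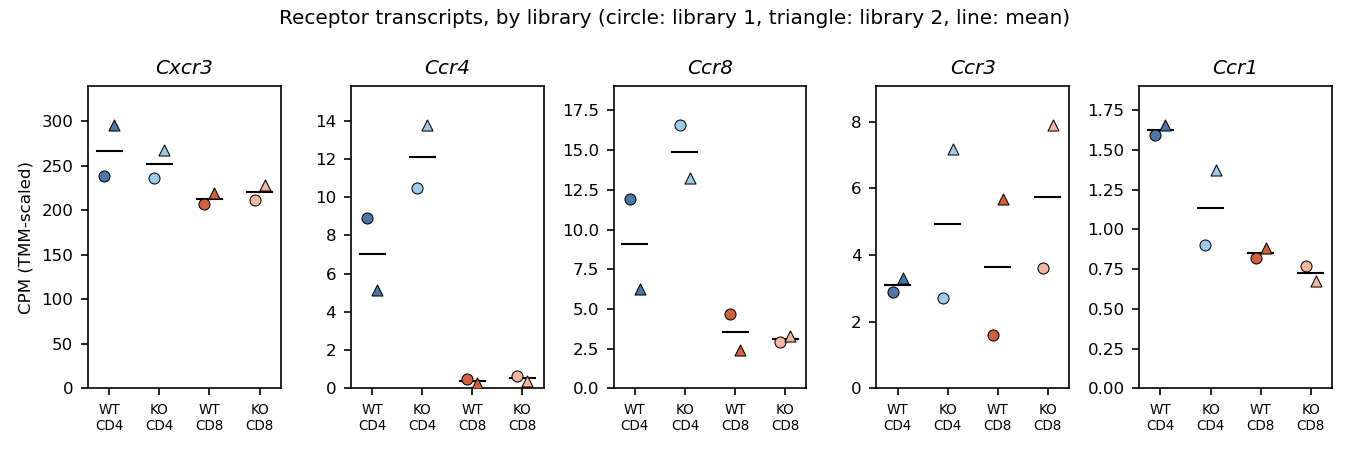
Each panel shows 1 receptor of the chemokines as TMM-scaled CPM (vertical axis, from 0) in the 4 groups, with a circle for library 1, a triangle for library 2 and a line for their mean. Ccr4 and Ccr8 were lower in CD8 than in CD4 libraries, and Cxcr3 lay between 207 and 295 CPM throughout.

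Of 33 other chemokine ligands, 31 were in the tables, 7 had no count in any library, and 10 passed the filter. No group reached a mean of 1 CPM except for 8 of them: Ccl6 (highest group mean 16.8 CPM), Ccl24 (3.30), Cxcl12 (3.20), Ppbp (2.28), Ccl25 (2.04), Ccl27a (1.86), Cxcl16 (1.41) and Cxcl9 (1.18). Cxcl9, which like Cxcl10 binds Cxcr3 and is induced by interferon, thus stayed far below Cxcl10. In edgeR, 0 of the 10 were called in any of the 5 comparisons, with unadjusted p under 0.05 for 1 in CD4, 2 in CD8 and 1 in the STAT3KO cell type contrast, and DESeq2 called 1, in the last of these. Over all genes, edgeR called 11.6% in CD4, 2.07% in CD8 and 0% for the difference. Between cell types it called 23.8% in WT and 12.5% in STAT3KO. With the block, edgeR called 2 higher for STAT3KO in CD8 T cells (10.3% of all genes), 3 higher in CD8 than in CD4 of WT (20.6%) and 1 in STAT3KO (14.4%). The first 2 were Ccl27a and Ppbp, and the last was Ppbp. Ppbp had 99 counts in STAT3KO CD8 library 2, 2 in STAT3KO CD8 library 1 and at most 11 in any other library. The median log2 fold change of these 10 was 0.79 for STAT3KO against WT in CD4 and 0.18 in CD8 T cells.

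Of 15 transcription factors known to act on chemokine genes, edgeR called 1 higher and 1 lower in STAT3KO CD4 T cells (6.54% and 5.08% of all genes). For CD8 T cells it called 0 of 15 (2.07% of all genes), with unadjusted p under 0.05 for 3, and DESeq2 called 1. Eomes, a T-box factor of effector and memory CD8 T cells, had 3.74 and 2.27 CPM in WT CD4, 13.5 and 11.01 CPM in STAT3KO CD4, 45.6 and 37.9 CPM in WT CD8, and 70.2 and 47.6 CPM in STAT3KO CD8 libraries. Its groups stood in the same order as those of Ccl5, and how many other genes share this order was not counted. Eomes rose 4.08-fold in STAT3KO CD4 T cells (edgeR adjusted p 0.00551). Its effect in CD8 T cells was 0.50 on the log2 scale (adjusted p 0.310 by edgeR, and 0.0154 with the block). The difference of the Eomes effect between cell types, CD8 minus CD4, was -1.53 (edgeR adjusted p 0.288) and passed with the block (-1.57, edgeR adjusted p 0.00434). Klf13, known to bind the Ccl5 promoter in late activated T cells, fell in STAT3KO CD4 T cells, from 437 and 435 CPM to 302 and 279 CPM (-0.59 on the log2 scale, adjusted p 0.0107 by edgeR). Klf13 and Ccl5 thus differed in direction between WT and STAT3KO CD4 T cells. With the block, 5 of the 15 were called higher and 2 lower in CD4 T cells (16.5% and 13.7% of all genes). Those called higher were Eomes, Tbx21, Runx3, Irf1 and Nfkb1. For CD8 T cells the block called 2 higher and 2 lower (10.3% and 7.89% of all genes). On the annotation used, an exon of Eomes overlaps Gm33460 by 118 bases, so part of its counts may come from that gene.

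Ccrl2, an atypical receptor that holds chemokines at the cell surface, was the only one of 5 scavenging receptors to pass the filter, and it rose in STAT3KO CD4 T cells from 15.5 and 13.2 CPM to 26.8 and 35.9 CPM (1.13 on the log2 scale, adjusted p 0.0363 by edgeR). Between cell types, Ccrl2 passed as lower in CD8 than in CD4 T cells of STAT3KO with the block alone (-0.67, edgeR adjusted p 0.0267). Release of Ccl5 together with cytotoxic granule contents has been described in CD8 T cells. Of 6 genes of granules and their matrix, 5 were tested and 1, Gzmb, passed in CD4 and also in CD8 T cells for STAT3KO against WT. It fell where Ccl5 rose (5.08% of all genes called lower in CD4 and 0.732% in CD8 T cells). Gzmb, the granule protease granzyme B, went from 533 and 469 CPM to 331 and 308 CPM in CD4 T cells (-0.65 on the log2 scale, adjusted p 0.0142 by edgeR). For CD8 T cells the levels went from 3384 and 2914 CPM to 1557 and 1355 CPM (-1.11 on the log2 scale, adjusted p 0.0119 by edgeR). With the block, 2 of the 5 granule genes were called lower in each STAT3KO comparison (13.7% of all genes in CD4 and 7.89% in CD8 T cells). Beside Gzmb, Srgn, the proteoglycan core of granules, was lower in CD4 T cells (-0.24, edgeR adjusted p 0.0464). In CD8 T cells the other gene was Prf1, the pore-forming perforin (-0.66, edgeR adjusted p 0.00509). Prf1 and Gzmb also passed with the block for the difference between cell types (-0.74 and -0.47, edgeR adjusted p 0.0471 and 0.0495). Ifng, Tnf and Csf2 are cytokines that T cells release together with Ccl3 and Ccl4. Of these 3, edgeR called 0 in CD4 (11.6% of all genes) and 0 in CD8 T cells (2.07%) for STAT3KO against WT. DESeq2 also called 0 of 3 in either, and the unadjusted p in edgeR was under 0.05 for 0 with CD4 and 1 with CD8 T cells. With the block 1 of 3 was called lower in CD8 T cells (7.89% of all genes).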

How the data were processed

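The deposited counts and RPKM tables were made by the authors. Per the study's methods, single-end reads were aligned to mm10 with STAR and summarised per RefSeq gene with HTSeq-count. The values used for tests are raw counts per gene as deposited, and the deposited RPKM values (scaled by the authors by exon length and library size) served to compare genes. The growth and treatment fields of the labels describe a cultured cell line and were not used, and labels and methods name different library kits. The members and gene lists were chosen with earlier results of these data known.

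Genes with low counts were removed with filterByExpr (minimum count 10, by group), which left 12428 of 25078 genes. TMM factors ranged from 0.982 to 1.03. The fit took all 8 libraries, with 1 mean per group in edgeR 4.0.16 (R 4.3.3) by the quasi-likelihood F test, two-sided, with Benjamini-Hochberg adjustment at 0.05. Scripts were tested on simulated data in which 200 genes were changed. The groups and library numbers came from the titles and characteristics of the labels. Libraries with the same number deviated from their group means together (Pearson's r over genes 0.424 to 0.671 in all 6 pairs of groups). The main fit did not use the library numbers. An alternative fit, with the number as a block, took them as pairing, which the labels do not state. It is given where it changed a call of a chemokine gene, and for the other lists as counts of calls, with values for some of the genes. Genes named were the 8 members, their receptors, other ligands with a mean of at least 1 CPM in a group, listed regulators, scavenging receptors, granule genes and cytokines called in a STAT3KO comparison, and the 3 genes most like each member. A receptor, a regulator and a gene from the likeness lists are not reported here and are left out of the list counts. Ccl6, Cd3e and the macrophage markers in the comparison of library numbers, and Art3 and Gm20743, were named after their values were seen. Alternatives were DESeq2 1.42.0, RLE factors, column totals, no filter, the block, the compared groups alone, limma 3.58.1 on log2(RPKM + 1) and log2(RPKM + 0.1), and leaving out each library. Gene coordinates (mm10) were read from the deposited tables, exon overlaps come from GENCODE M21, and promoters from RefSeq. No 2 libraries held identical values.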

Additional observations from a re-analysis of the deposited data

How the results depend on the processing

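Of the chemokine genes, edgeR called 1 higher in STAT3KO CD4 T cells, and DESeq2, the fit with no filter and the fit of the compared groups alone each called 2, the replicate block 5, and the fits without one library 1 to 2. In CD8 T cells 1 was called, 0 with the compared groups alone and 0 to 1 without one library. For the difference between cell types 0 were called, 1 each with DESeq2, no filter, log2(RPKM + 1) and the block, and 0 without any one library. For CD8 against CD4, 3 were called in WT, 6 with no filter, 7 with the block and 2 to 4 without one library. In STAT3KO cells 4 were called, 6 with the block, 3 with the compared groups alone, and 1 to 3 without one library. Over all genes, the calls were 1444 in CD4 (block 3747, without one library 412 to 1307), 257 in CD8 (DESeq2 885, no filter 454, block 2258, compared groups 37, without one library 7 to 224), 0 for the difference (DESeq2 188, no filter 44, block 403, log2(RPKM + 1) 13), 2960 for the cell types in WT (block 5232, compared groups 1919, without one library 1546 to 2598) and 1555 in STAT3KO (block 3689, without one library 457 to 1554). The replicate block changed no call of a chemokine gene beyond those given in the report.

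Ccl5 in CD4 T cells kept its call in every alternative (adjusted p up to 0.0096), and in both cell type contrasts too. In CD8 T cells it also lost it with the compared groups alone (adjusted p 0.0529), and so did Cxcl10 for CD8 against CD4 in STAT3KO cells (adjusted p 0.0614). The Ccl9 log2 fold change in STAT3KO CD8 T cells, 0.0034, turned to -0.0057 with DESeq2, -0.0025 with RLE, -0.054 with column totals, -0.0069 with no filter, -7.2e-05 with the compared groups, and -0.0037 and -0.010 with log2(RPKM + 1) and log2(RPKM + 0.1). Without one library it ran from -2.21 to 2.19, and in CD4 T cells from -0.79 to 2.56. For the difference it ran from -3.30 to 1.09, and between cell types from -0.84 to 2.80 in WT and -1.95 to 2.14 in STAT3KO. The fits without one library carried no block, so these ranges also hold the difference between library numbers. Within libraries 1 and 2, Ccl9 of STAT3KO was 0.992 and 1.00 times WT in CD8 T cells. In CD4 T cells it was 1.60 and 2.30 times WT. Without one library, log2 fold changes that changed sign ran in CD4 T cells from -0.24 to 0.90 for Ccl1, -0.040 to 1.5004 for Ccl3 and -0.12 to 1.39 for Ccl4, and in CD8 T cells from -0.42 to 0.42 for Ccl3, -0.15 to 0.61 for Ccl4, -0.079 to 1.57 for Cxcl10 and -0.091 to 1.16 for Xcl1. For the difference they ran from -1.22 to 0.29 for Ccl4 and -2.21 to 0.092 for Xcl1. None of these effects had passed the test without the block. With it, Ccl3 and Ccl9 passed in CD4 T cells, and Ccl9 for CD8 against CD4 in WT. Leaving out all libraries numbered 2, an alternative chosen after seeing the data, leaves 1 library a group and no test. Depth limits Ccl22, which had at most 14 counts in a library.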
